A study of Mus musculus with 6 samples.

Results

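The 28 genes described here encode the enzymes that build cholesterol and long-chain fatty acids, and the proteins that switch those enzymes on. They were chosen by name, as steps of the mevalonate and sterol pathway, regulators of the sterol regulatory element-binding proteins (SREBPs), and enzymes of fatty acid synthesis and desaturation. All 28 were found among the 51911 genes of the count table, and all 28 passed the filter on low counts that left 16593 genes for testing. The samples were gastrocnemius, a calf muscle, from male mice, with 3 libraries from HSA-PGC-1a3 transgenic animals and 3 from wild-type animals. The transgene places PGC-1alpha3, one of the protein forms of the coactivator PGC-1alpha, under the human skeletal actin (HSA) promoter, so that muscle fibres express it. Age, strain and the number of animals behind a library are not given in the sources used here, so the p-values measure the spread between these libraries, which may be technical.

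Cells make cholesterol from acetyl-CoA by way of mevalonate, isoprenoids, squalene and a long series of sterol intermediates. The rate is set largely by SREBP transcription factors, which are held in the endoplasmic reticulum by INSIG proteins when sterol is plentiful and are carried by SCAP to the Golgi for cleavage when it is scarce. SREBP-2, from Srebf2, mainly drives the cholesterol genes, whereas SREBP-1c, a product of Srebf1, mainly drives fatty acid synthesis and in muscle is known to respond to feeding and insulin.

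Library totals ranged from 25532146 to 40846872 counts, and a count of 3 equalled 0.0804 to 0.134 CPM (counts per 1000000, scaled by TMM, a method that matches libraries on their typical gene). Ppargc1a, which encodes PGC-1alpha, had a log2 fold change of 5.81 (SE 0.12), and its counts matched every label, at 73513 to 120862 with the transgene and 1179 to 1809 without it. All 10 muscle fibre markers were expressed, with a summed level of 89473 to 89836 CPM in transgenic and 171560 to 181570 CPM in wild-type libraries. With TMM, 8 of the 10 fell while Myh1 rose, beside 25.2% of all tested genes lower and 25.5% higher. In bulk tissue, fewer cells of a type and less RNA per cell cannot be told apart. The median log2 fold change of all tested genes was -0.016 with TMM and 0.38 with library totals alone, a shift of 0.40 that applies to every value below, so small changes are stated relative to TMM.

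In transgenic muscle 8 of the 28 genes were called higher and 7 lower, 15 in all, at an adjusted p under 0.05 (edgeR quasi-likelihood test, Benjamini-Hochberg adjustment over all tested genes). That is 53.6% of the genes, near the 50.7% of all tested genes that passed, made up of 25.5% higher and 25.2% lower. For 18 of the 28, no transgenic library fell within the wild-type range of CPM or the reverse, beside 59.6% of all tested genes. Changes of at least 1.5-fold were seen in 6 of the 28 (21.4%, against 24.0% of all tested genes), with Tm7sf2 and Mvd higher and Srebf1, Ebp, Hsd17b7 and Fdft1 lower. The median log2 fold change of the 28 was 0.14. Called genes lay on both sides of 0 among the sterol enzymes and the regulators, only above 0 among the mevalonate enzymes and only below 0 among the fatty acid enzymes, and the difference between these groups was not tested. With library totals alone, 17 were called higher and 4 lower (all tested genes, 52.3% higher and 8.73% lower), and the 4 lower genes were Srebf1, Fdft1, Hsd17b7 and Ebp.

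**Figure D1:**
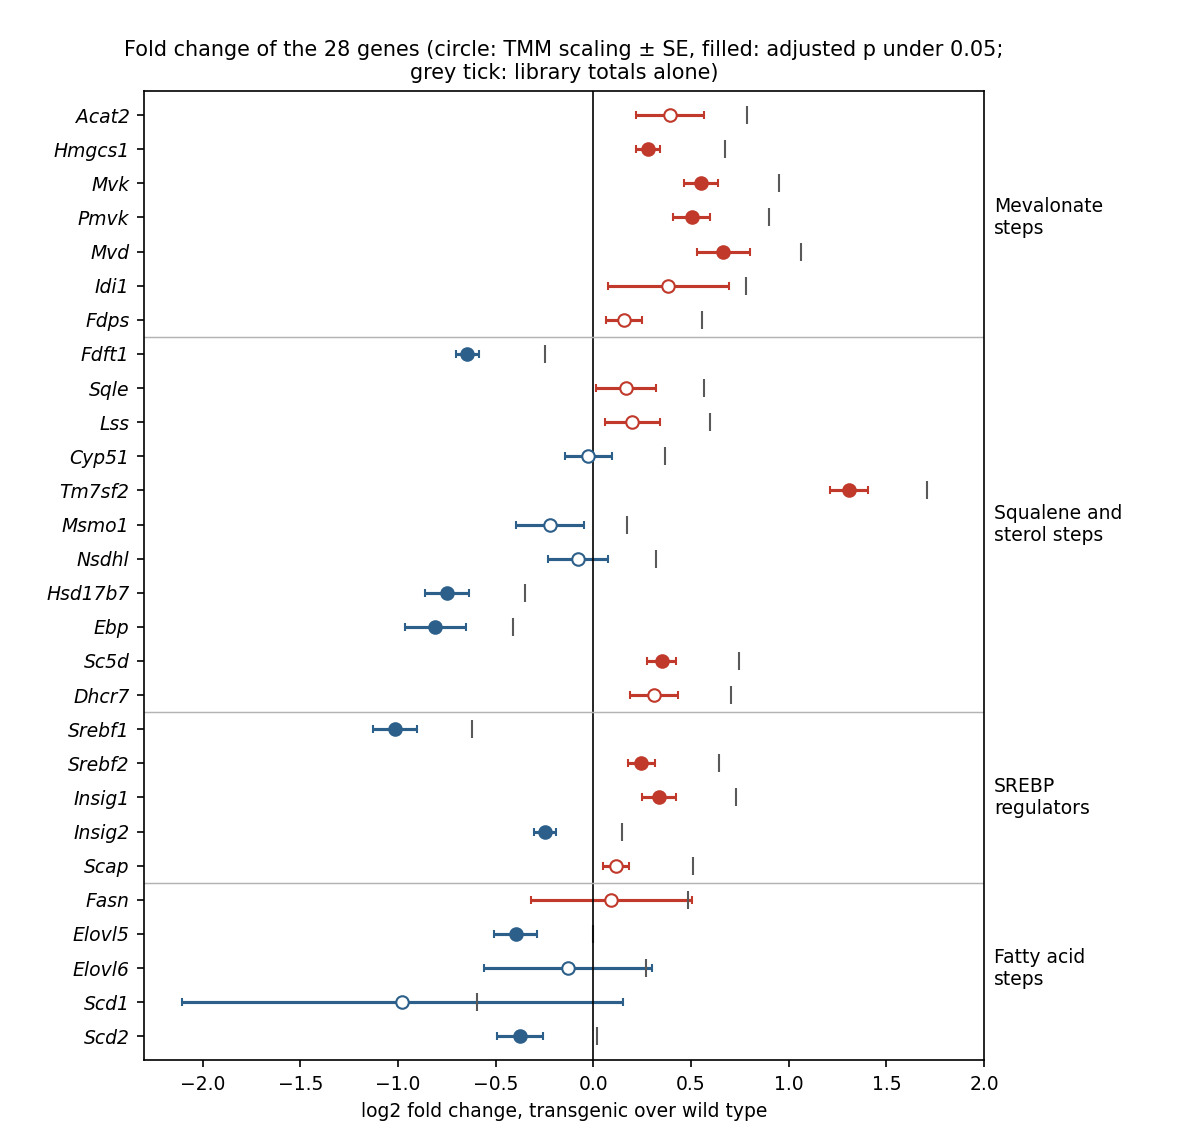
Log2 fold change (x axis, transgenic over wild type) of each of the 28 genes, grouped by role, with TMM scaling (circles with SE, filled where adjusted p is under 0.05) and with library totals alone (grey ticks). The mevalonate genes lie to the right of 0, from 0.16 for Fdps to 0.66 for Mvd, whereas Srebf1 at -1.02, Ebp at -0.81, Hsd17b7 at -0.75 and Fdft1 at -0.64 lie to the left under both scalings.

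Srebf1 (chromosome 11, 60199089 to 60222581, GRCm38) was at 88.1, 70.4 and 63.7 CPM in transgenic replicates 1, 2 and 3 and at 149.8, 157 and 142 CPM in the wild-type libraries. Every transgenic library lay well below every wild-type library, with transgenic replicate 1 the highest of its group. The log2 fold change was -1.02 (SE 0.11, adjusted p = 0.000105), which is 2.02-fold lower, and it stayed below 0 with library totals alone (-0.62, adjusted p = 0.0014). Counts per gene do not separate the SREBP-1a and SREBP-1c transcripts. Srebf1 shares 109 exonic bases with Rai1 on the other strand, and Rai1 also fell (-0.53, SE 0.12, adjusted p = 0.00696).

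Srebf2 (chromosome 15, 82147181 to 82205379) moved the other way by a small amount. It was at 33.7, 35.3 and 33.2 CPM in transgenic and 27.2, 30.7 and 28.2 CPM in wild-type libraries, so the groups did not overlap. The log2 fold change was 0.25 (SE 0.07, adjusted p = 0.0102), a call that ended when both libraries numbered 1 were left out (0.22, adjusted p = 0.0694). A ratio within a library does not depend on the scaling between libraries. The ratio of Srebf1 to Srebf2 counts was 2.61, 1.99 and 1.92 in the transgenic group, against 5.50, 5.11 and 5.04 in the wild type. All 3 transgenic ratios were below all 3 wild-type ratios, a difference of -1.28 in mean log2 ratio (exact two-sided permutation p = 0.1, the smallest that 3 against 3 allows, and adjusted p = 0.2 over 4 paralogue pairs).

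The INSIG genes, whose proteins retain the SREBP complex in the endoplasmic reticulum, also diverged. Insig1, itself an SREBP target, was at 19.4, 23.0 and 19.3 CPM in transgenic and 16.7, 16.2 and 15.9 CPM in wild-type libraries (log2 fold change 0.34, SE 0.09, adjusted p = 0.00713). Insig2, which has the same retaining role, was at 67.2, 61.7 and 67.1 CPM in transgenic and 80.02, 77.7 and 74.9 CPM in wild-type libraries. Its log2 fold change was -0.25 (SE 0.06, adjusted p = 0.00434) with TMM but 0.15 (adjusted p = 0.0424) with library totals alone, so its direction depended on the scaling. The ratio of Insig1 to Insig2 was 0.288, 0.373 and 0.287 in the transgenic group against 0.209, 0.209 and 0.213 in the wild type, higher in all 3 transgenic libraries (difference in mean log2 ratio 0.58, exact permutation p = 0.1, adjusted p = 0.2). Scap, the escort protein gene, did not pass (0.12, SE 0.07, adjusted p = 0.167), with 28.7 to 31.5 CPM in transgenic and 26.8 to 28.6 CPM in wild-type libraries.

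**Figure D2:**
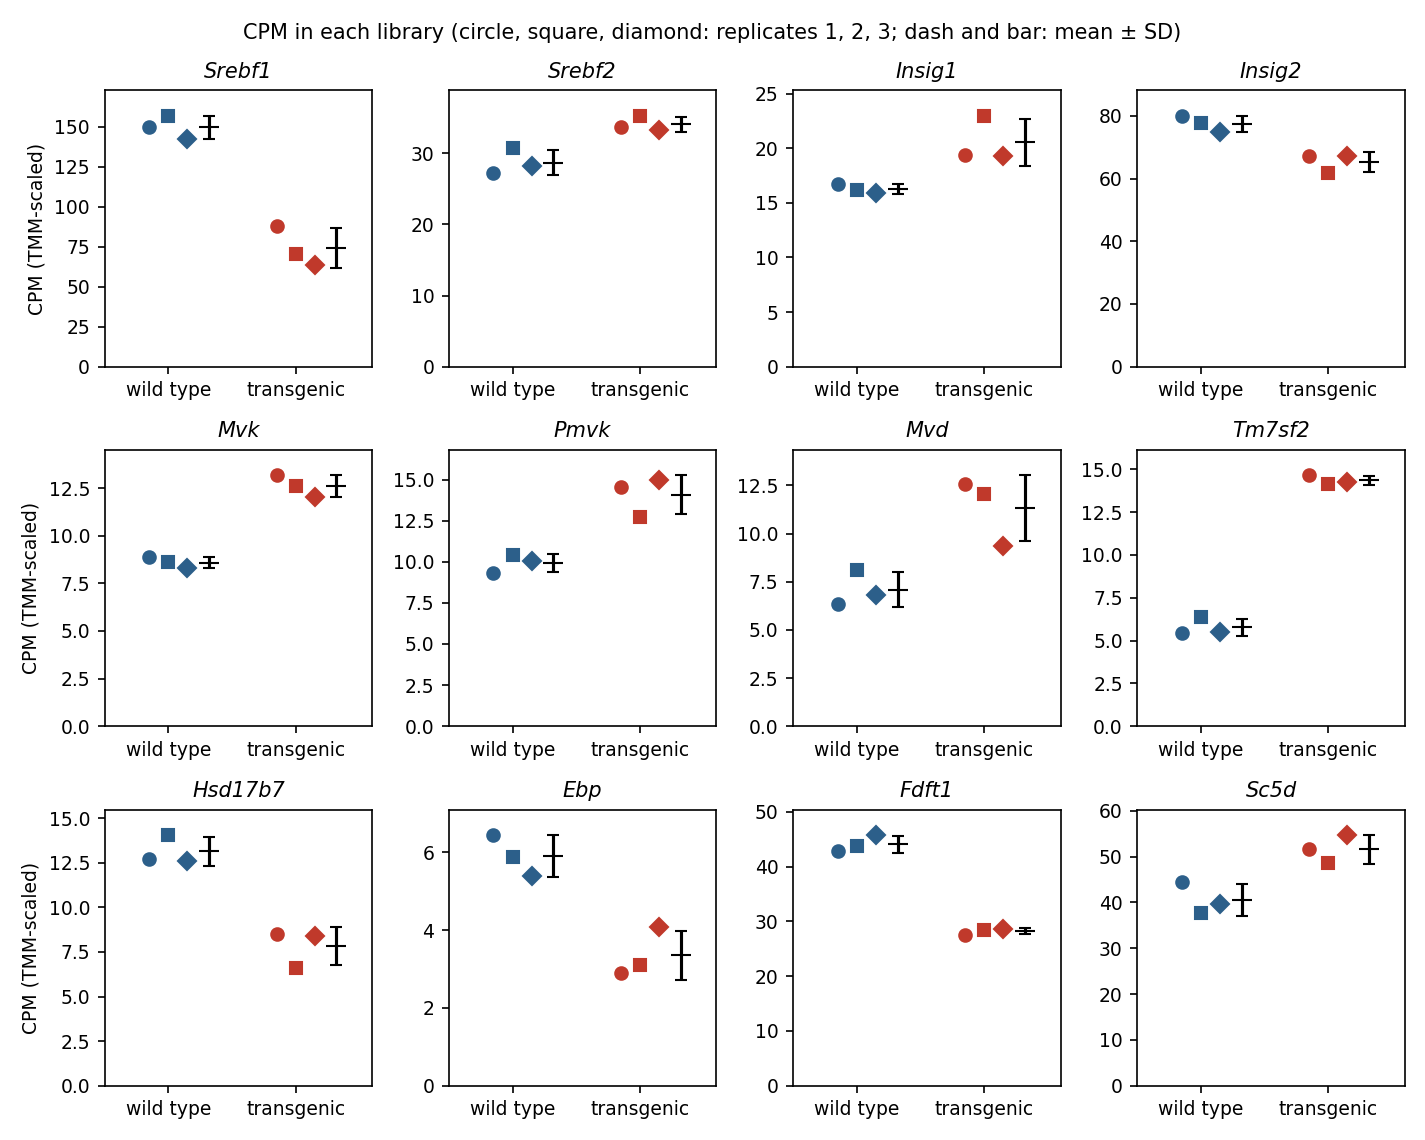
CPM (y axis, TMM-scaled, from 0) of 12 of the genes in each library, wild type in blue and transgenic in red, with circles, squares and diamonds for replicates 1, 2 and 3 and the mean ± SD beside them. All 12 were picked from the called genes, and in none of their panels do the genotypes overlap. The same holds for 18 of the 28 genes and for 59.6% of all tested genes. Srebf1 runs from 63.7 to 88.1 CPM in transgenic and from 142 to 157 CPM in wild-type libraries.

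Of the 7 mevalonate genes, 4 rose and 0 fell (57.1% called, beside 50.7% of all tested genes), with a median log2 fold change of 0.39 beside -0.016 for all tested genes. The 3 consecutive enzymes that turn mevalonate into isopentenyl diphosphate rose by 1.42- to 1.58-fold. Mvk, the mevalonate kinase gene, was at 13.2, 12.6 and 12.1 CPM in transgenic and 8.88, 8.61 and 8.29 CPM in wild-type libraries (0.55, SE 0.09, adjusted p = 0.000295). Pmvk, the phosphomevalonate kinase gene, was at 14.5, 12.7 and 14.98 CPM against 9.31, 10.4 and 10.1 CPM (0.50, SE 0.09, adjusted p = 0.000984). Mvd, the diphosphomevalonate decarboxylase gene, was at 12.6, 12.03 and 9.35 CPM against 6.33, 8.09 and 6.82 CPM (0.66, SE 0.14, adjusted p = 0.00185). No transgenic library of these genes reached down to a wild-type one, although Mvd in transgenic replicate 3 came near wild-type replicate 2. Upstream of them Hmgcs1, which makes HMG-CoA, rose by 1.21-fold, from 45.3 ± 1.65 to 55.1 ± 2.78 CPM (SD, n = 3; 0.28, SE 0.06, adjusted p = 0.00267). The other mevalonate genes did not pass with TMM: Acat2, which makes acetoacetyl-CoA, had a log2 fold change of 0.39 (adjusted p = 0.0842), the isopentenyl isomerase gene Idi1 0.38 (0.327) and the farnesyl diphosphate synthase gene Fdps 0.16 (0.174). Idi1 rested on 11 to 28 counts per library. Fdps shares 1124 exonic bases with Gm43738 on the same strand, so part of its count cannot be assigned. With library totals alone all 7 mevalonate genes were called higher, under a scaling that called 52.3% of all tested genes higher.

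The sequences just before the starts of 4 mevalonate genes that rose and 2 sterol genes that fell are shown because they carry the same short element on both sides of the contrast. They are RefSeq sequence of GRCm38.p6, written 5′ to 3′ on the gene's own strand, with annotated exons left out. Capitals mark CCAAT on either strand (ATTGG where it lies on the other strand), a box bound by NF-Y, which is known to act beside SREBP, and TCACNCCAC on either strand, the core of the classical sterol regulatory element. The stretches are chr13:119690101-119690350 (plus strand), chr5:114444061-114444268 (plus), chr3:89454291-89454540 (plus), chr8:122443423-122443672 (minus), chr1:169969242-169969408 (minus) and chrX:8193513-8193762 (minus).
Hmgcs1: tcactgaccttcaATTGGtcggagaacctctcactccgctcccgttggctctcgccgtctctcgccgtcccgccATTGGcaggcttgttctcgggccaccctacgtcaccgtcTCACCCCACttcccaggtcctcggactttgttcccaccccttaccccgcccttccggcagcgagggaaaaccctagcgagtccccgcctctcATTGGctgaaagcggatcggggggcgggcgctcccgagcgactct
Mvk: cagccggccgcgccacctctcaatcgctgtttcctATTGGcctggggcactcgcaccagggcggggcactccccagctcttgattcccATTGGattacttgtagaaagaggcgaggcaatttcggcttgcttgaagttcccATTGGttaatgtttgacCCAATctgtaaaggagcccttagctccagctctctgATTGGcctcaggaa
Pmvk: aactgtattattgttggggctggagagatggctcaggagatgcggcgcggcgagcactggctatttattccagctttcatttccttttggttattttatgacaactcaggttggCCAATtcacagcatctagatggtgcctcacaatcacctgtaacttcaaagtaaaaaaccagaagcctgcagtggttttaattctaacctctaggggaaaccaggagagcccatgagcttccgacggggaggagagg
Mvd: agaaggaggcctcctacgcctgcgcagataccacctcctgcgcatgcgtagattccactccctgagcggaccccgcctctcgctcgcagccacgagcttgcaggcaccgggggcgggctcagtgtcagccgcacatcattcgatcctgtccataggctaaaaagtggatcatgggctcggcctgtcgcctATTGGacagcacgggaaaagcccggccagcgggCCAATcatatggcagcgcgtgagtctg
Hsd17b7: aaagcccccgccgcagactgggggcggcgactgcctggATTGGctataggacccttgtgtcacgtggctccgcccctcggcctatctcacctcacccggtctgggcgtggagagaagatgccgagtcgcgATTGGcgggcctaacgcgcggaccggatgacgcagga
Ebp: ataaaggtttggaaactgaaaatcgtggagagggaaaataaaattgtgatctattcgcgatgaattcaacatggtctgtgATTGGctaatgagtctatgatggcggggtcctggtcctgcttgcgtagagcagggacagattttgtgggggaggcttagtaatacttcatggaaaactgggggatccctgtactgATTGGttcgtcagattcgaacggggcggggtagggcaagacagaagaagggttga

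The CCAAT letters occurred 3 times in the Hmgcs1 stretch, 5 times in that of Mvk, once in that of Pmvk and 2 times each in those of Mvd, Hsd17b7 and Ebp. Among the 23 of the 28 genes with an entry in the promoter table, 20 (87.0%) held CCAAT in the 250 bases before at least 1 start, against 39.4% of the tested genes with an entry and 37.5% of all genes with one. It was present in all 8 genes called higher, in all 5 of the called-lower genes with an entry and in 7 of 10 that were not called. The GC box GGGCGG occurred in 19 of the 23 (82.6%, against 61.6% of tested genes), and the E-box CACGTG in 6 (26.1%, against 9.62%), both strands searched. TCACNCCAC was found in 1 of the 23, Hmgcs1, and in 1.31% of tested genes. Several of the 28 have more than 1 annotated start, and a gene was counted if any of its stretches held the letters. These matches describe letters and not bound sites.

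The 11 genes from squalene synthesis to cholesterol lay on both sides of 0: 2 rose, 3 fell and 6 did not pass (45.5% called, beside 50.7% of all tested genes), with a median log2 fold change of -0.026. Tm7sf2, a sterol reductase gene (chromosome 19, 6062821 to 6068373), had the largest rise of the 28. It was at 14.7, 14.2 and 14.3 CPM in transgenic and 5.42, 6.36 and 5.52 CPM in wild-type libraries, with a wide gap between the groups (1.31, SE 0.10, adjusted p = 1.25e-06). Tm7sf2 shares 532 exonic bases with Vps51 on the same strand, and a fragment there was counted for both. Vps51 itself rose, from 20.2 ± 1.34 to 44.4 ± 2.70 CPM (SD, n = 3; 1.13, SE 0.07, adjusted p = 5.53e-07), so the part of the Tm7sf2 change that comes from shared fragments cannot be told apart. Sc5d, the lathosterol desaturase gene near the end of the pathway, rose from 40.6 ± 3.42 to 51.6 ± 3.15 CPM (0.35, SE 0.07, adjusted p = 0.00227).

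Fdft1, Hsd17b7 and Ebp fell. Fdft1 encodes squalene synthase, the first enzyme committed to sterols, and was at 27.6, 28.4 and 28.7 CPM in transgenic and 42.8, 43.7 and 45.8 CPM in wild-type libraries (-0.64, SE 0.06, adjusted p = 6.41e-06). It shares 774 exonic bases with Ctsb on the other strand, a gene at 299.6 CPM in wild type that had a log2 fold change of 0.21, the opposite direction. Counting ignored strand, so a fragment over the shared bases was counted for both genes. Hsd17b7, a ketoreductase in the removal of sterol methyl groups, was at 8.48, 6.60 and 8.41 CPM in transgenic and 12.7, 14.1 and 12.6 CPM in wild-type libraries (-0.75, SE 0.11, adjusted p = 0.000219). Ebp, the sterol isomerase gene on chromosome X, was at 2.89, 3.098 and 4.07 CPM against 6.46, 5.87 and 5.39 CPM (-0.81, SE 0.16, adjusted p = 0.00127). The genotypes were separate for all 3 genes, and all 3 were still called lower with library totals alone, at -0.25, -0.35 and -0.41.

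The other 6 sterol genes did not pass. Dhcr7, the last reductase of the pathway, was nearest the threshold, with 9.10 to 12.002 CPM in transgenic and 7.80 to 9.45 CPM in wild-type libraries (0.31, SE 0.12, adjusted p = 0.0554). Dhcr7 was called higher with no filter on low counts (0.35, adjusted p = 0.012), at least 10 counts in every library (0.33, 0.0431) and when transgenic replicate 2 (0.42, 0.0215) or wild-type replicate 3 (0.39, 0.0436) was left out. The squalene epoxidase gene Sqle (0.17, SE 0.15), the lanosterol synthase gene Lss (0.20, SE 0.14), the lanosterol demethylase gene Cyp51 (-0.026, SE 0.12), the methylsterol oxidase gene Msmo1 (-0.22, SE 0.17) and the decarboxylase gene Nsdhl (-0.077, SE 0.15) had adjusted p-values from 0.256 to 0.874, and their libraries overlapped between genotypes. With library totals alone Cyp51, Msmo1 and Nsdhl turned to 0.37, 0.17 and 0.32. Hsd17b7, Nsdhl and Msmo1 act together in the same demethylation, and only Hsd17b7 of these was called; the differences between their changes were not tested.

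Of the 5 fatty acid genes, 0 rose and 2 fell (beside 25.5% and 25.2% of all tested genes), and the 2 calls were not stable. Scd2, a stearoyl-CoA desaturase gene that is not the main isoform of fat and liver, was at 68.3, 53.0 and 50.1 CPM in transgenic and 80.6, 70.7 and 70.9 CPM in wild-type libraries. Its log2 fold change of -0.38 (SE 0.12, adjusted p = 0.0283) lost its call when 1 library was left out: transgenic replicate 2 (-0.30, adjusted p = 0.111) or 3 (-0.28, 0.0867), or wild-type replicate 1 (-0.32, 0.0935) or 2 (-0.41, 0.0556). It was 0.019 with library totals alone. Elovl5, an elongase of polyunsaturated fatty acids, was at 11.1, 10.9 and 11.6 CPM in transgenic and 17.2, 14.5 and 12.6 CPM in wild-type libraries. Its log2 fold change of -0.40 (SE 0.11, adjusted p = 0.0111) lost its call without transgenic replicate 2 (-0.35, adjusted p = 0.0527), without both libraries numbered 1 (-0.27, 0.0941) and with library totals alone (-0.0018, 0.991).

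Scd1, Fasn and Elovl6 varied more between libraries of 1 genotype than between genotypes. Scd1, the main stearoyl-CoA desaturase gene of fat and liver, was at 173, 46.8 and 49.99 CPM in transgenic and 407.5, 71.0 and 52.8 CPM in wild-type libraries. Replicate 1 stood far above the others in each genotype, and the log2 fold change of -0.98 had an SE of 1.13 (adjusted p = 0.527). It was 0.52 (adjusted p = 0.666) without wild-type replicate 1, so its sign turned without that library, and -0.36 (adjusted p = 0.0931) without both libraries numbered 1. Fasn, the fatty acid synthase gene, was at 55.5, 31.2 and 42.3 CPM against 61.5, 30.4 and 29.5 CPM (0.092, SE 0.41, adjusted p = 0.876). Elovl6, which elongates saturated fatty acids, was at 2.63, 1.30 and 1.13 CPM against 2.08, 2.42 and 0.891 CPM (-0.13, SE 0.43, adjusted p = 0.826). The ratio of Scd1 to Scd2 overlapped, at 0.745 to 5.05 in wild type and 0.883 to 2.53 with the transgene (exact permutation p = 0.8, adjusted p = 0.8), and that of Elovl6 to Elovl5 also overlapped (p = 0.7, adjusted p = 0.8).

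Markers of fat and nerve varied across the same libraries. Adipoq, the fat cell hormone adiponectin, was at 7.33, 1.80 and 2.81 CPM in transgenic and 23.2, 3.05 and 2.23 CPM in wild-type libraries, highest in replicate 1 of each genotype as Scd1 was. The 12 adipocyte markers summed to 1670 to 1996 CPM in transgenic and 2015 to 2298 CPM in wild-type libraries. Most of this sum was Car3, which muscle fibres also express. Adrb3 was the 1 marker at 0 in a library. Of 11 tested, 1 fell with TMM, the fatty acid binding protein gene Fabp4. Fabp4 was at 138, 134 and 124 CPM in transgenic against 213, 177 and 169.6 CPM in wild-type libraries. The 12 Schwann cell markers summed to 80.9 to 313 CPM in transgenic and 124 to 254 CPM in wild-type libraries, with replicate 1 highest in each genotype, none at 0 in any library and none called. All 10 endothelial markers fell with TMM (420.1 to 441 CPM summed against 533 to 568 CPM). Their median log2 fold change was -0.36, smaller in size than the shift of 0.40 between TMM and library totals alone. Of the fibroblast markers 3 of 8 fell with TMM (1006 to 1178 CPM against 1160 to 1389 CPM). Of the macrophage markers 1 of 10, Cd68, rose (97.7 to 110.4 CPM against 72.7 to 119 CPM). The shares over all tested genes with TMM were 25.2% lower and 25.5% higher. The part of these cells in the fatty acid and sterol values was not tested.

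**Figure D3:**
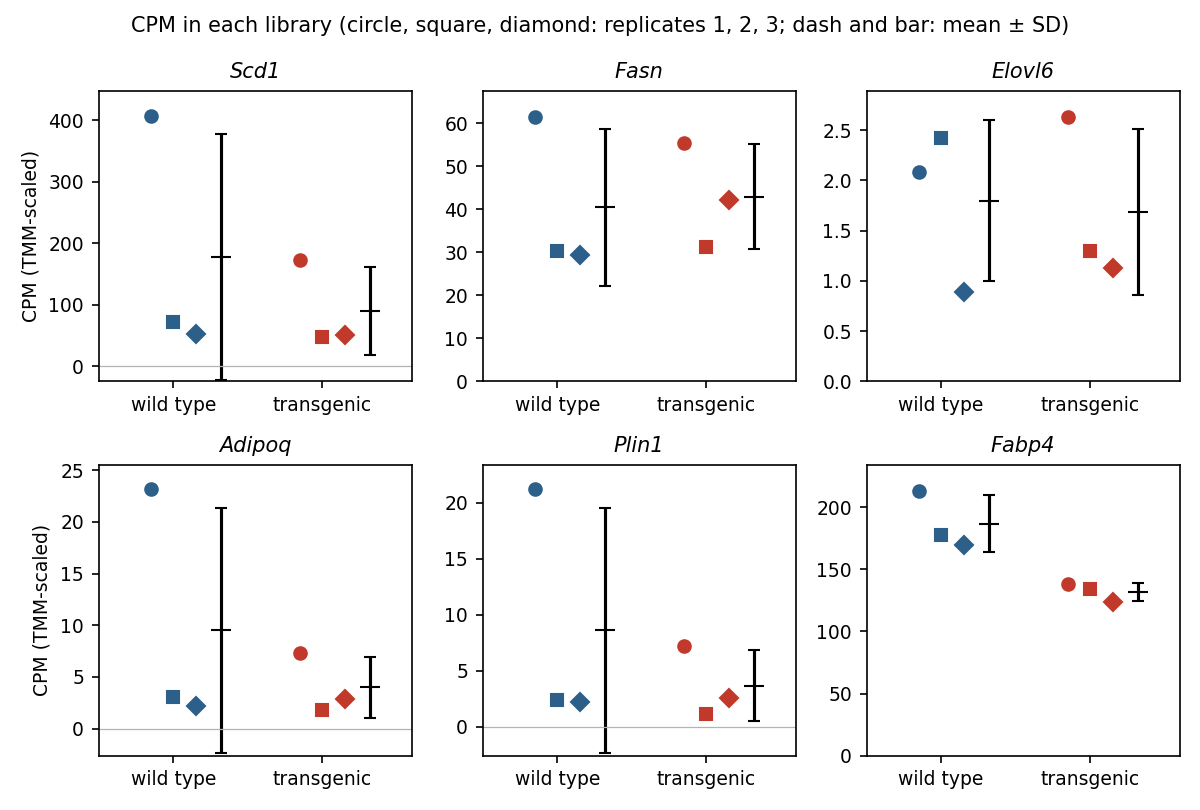
CPM (y axis, TMM-scaled) of 3 fatty acid genes and of the adipocyte markers Adipoq, Plin1 and Fabp4 in each library, with circles, squares and diamonds for replicates 1, 2 and 3 and the mean ± SD beside them. Scd1 reaches 407.5 CPM and Adipoq 23.2 CPM in wild-type replicate 1, and in each genotype replicate 1 is the highest for Scd1, Fasn and the 3 markers.

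Levels of the 28 genes, compared per kilobase of exon, spanned a wide range. In wild-type muscle Srebf1 (26.6 ± 1.30 CPM per kb, SD, n = 3) and Insig2 (22.3 ± 0.745) were the highest of the genes with a small spread, and Scd1 (36.2 ± 40.8) was higher on average but not separable from them. Among enzymes of the cholesterol branch Fdft1 (10.4 ± 0.366), Hmgcs1 (9.87 ± 0.359) and Sc5d (8.34 ± 0.704) led. Idi1 (0.155 ± 0.0166), Lss (0.549 ± 0.0677) and Sqle (0.670 ± 0.117) were lowest of that branch. The fatty acid gene Elovl6 was at 0.279 ± 0.125. Lengths were unions of all annotated exons, 10787 bases for Lss, and a long union lowers the value. The place of Fdft1 is uncertain, because fragments over the 774 exonic bases shared with Ctsb were counted for both genes. Ctsb was at 49.5 CPM per kb in wild type, and its part in the Fdft1 level was not tested. In transgenic muscle the level of Srebf1 was 13.1 CPM per kb, below that of Insig2 at 18.8.

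**Figure D4:**
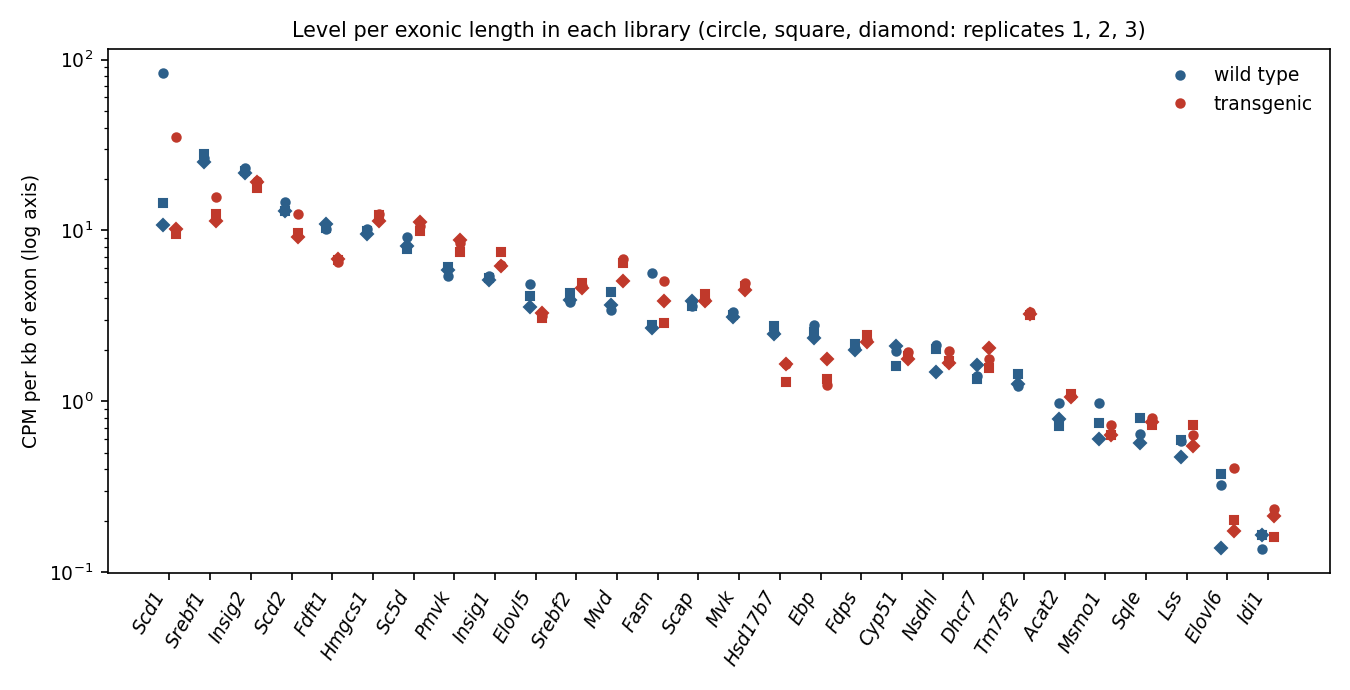
CPM per kilobase of exon (y axis, log scale) of the 28 genes in each library, ordered by the wild-type mean, with wild type in blue, transgenic in red and circles, squares and diamonds for replicates 1, 2 and 3. The genes run from Scd1, with a wild-type mean of 36.2, to Idi1 at 0.155. The colours separate for 18 of the 28, among them Srebf1, Tm7sf2, Hsd17b7, Ebp and Fdft1, beside 59.6% of all tested genes.

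Other genes of the same pathways were read from 5 lists holding 94 genes, of which 85 were tested. Of these, 25 rose and 27 fell (61.2%, against the 50.7% of all tested genes), and the counts were 50 and 9 under scaling by library totals. Among 14 tested genes of sterol uptake, trafficking and further sterol enzymes, 4 rose and 5 fell (64.3% called, beside 50.7% of all tested genes). Npc1, which exports cholesterol from lysosomes, was at 51.3, 61.3 and 65.3 CPM in transgenic and 127, 100.1 and 123 CPM in wild-type libraries (-0.97, SE 0.11, adjusted p = 0.000167), and shares 511 exonic bases with Rmc1 on the other strand. Lpin1, a phosphatidate phosphatase gene, fell (-0.62, SE 0.07) and Srd5a3, a polyprenol reductase gene, rose (0.80, SE 0.13).

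The branches that use mevalonate products changed in 13 of 15 genes (86.7%), 7 up and 6 down, beside 25.5% of all tested genes up and 25.2% down. In the coenzyme Q branch Pdss2, a subunit of the side-chain synthase, rose (0.89, SE 0.06, adjusted p = 7.28e-07) while Coq2, which attaches the chain, fell with TMM (-0.44, SE 0.06, adjusted p = 8.82e-05). Of the prenyltransferase subunit genes, Fnta (0.57, SE 0.05) and Rabggta (0.65, SE 0.08) rose. Among 16 tested genes of SREBP transport, cleavage and degradation, 6 rose and 2 fell. That is 8 of 16 called, near the 50.7% of all tested genes. Erlin2, an endoplasmic reticulum protein that takes part in sterol-regulated degradation, was at 33.2, 34.7 and 36.0 CPM in transgenic and 16.3, 16.6 and 16.5 CPM in wild-type libraries (1.07, SE 0.07, adjusted p = 3.35e-07). Within the COPII coat that carries SCAP cargo, Sec23a rose (0.66, SE 0.05) and the GTPase gene Sar1b fell (-0.86, SE 0.08). Rnf139, a ubiquitin ligase gene that shares 1140 exonic bases with Tatdn1 on the other strand, fell with TMM (-0.42, SE 0.06), and Rnf139 and Coq2 had no call with library totals alone (-0.027 and -0.046).

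Of 26 tested genes of fatty acid synthesis, elongation and lipid assembly, 4 rose and 9 fell. That is 13 of 26 called, near the 50.7% of all tested genes. Acacb, the acetyl-CoA carboxylase of muscle whose malonyl-CoA restrains fat oxidation, was at 300.3, 305 and 294 CPM in transgenic and 477, 486 and 538 CPM in wild-type libraries (-0.74, SE 0.06, adjusted p = 4.1e-06). Hacd1, a muscle dehydratase of fatty acid elongation, fell from 33.9 ± 1.78 to 13.8 ± 0.204 CPM (-1.29, SE 0.07, adjusted p = 1.47e-07). Agpat2, an acyltransferase of glycerolipid synthesis (1.31, SE 0.09), and Fads6, a gene of the desaturase family (1.11, SE 0.10), rose. Agpat2 shares 64 exonic bases with Egfl7 on the other strand. Of 14 tested genes of sterol efflux, esterification and liver X receptor (LXR) signalling, 4 rose and 5 fell (64.3% called, beside 50.7% of all tested genes). Nr1h2, which encodes LXR-beta, rose from 48.8 ± 3.70 to 103 ± 3.38 CPM (1.08, SE 0.07, adjusted p = 3.32e-07), and Soat1, which esterifies cholesterol, rose from 2.63 ± 0.195 to 5.07 ± 0.288 CPM (0.94, SE 0.14, adjusted p = 0.000172). Cyp27a1, the sterol hydroxylase gene, was at 37.6 to 38.8 CPM in transgenic and 79.7 to 82.6 CPM in wild-type libraries (-1.09, SE 0.05, adjusted p = 8.89e-08). Mylip, a ubiquitin ligase gene and LXR target, fell with TMM (-0.42, SE 0.08) and had no call with library totals alone (-0.027).

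The authors' deposited table, which lists genes past a fold limit of 0.585 on the log2 scale, held 6 of the 28 genes. In the authors' deposited table the log2 fold changes were -1.03 for Srebf1, 1.18 for Tm7sf2, -0.75 for Ebp, -0.75 for Fdft1, -0.72 for Hsd17b7 and 0.60 for Mvd. These are the same 6 genes, each with the same sign, that passed here with at least a 1.5-fold change. Both results rest on the libraries of this series and on the same fold limit, so the match is not independent.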

How the data were processed

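RNA was taken with Trizol from frozen, powdered gastrocnemius. Per the submitters' processing notes, STAR 2.5.0a, featureCounts 2.0.0, DESeq2 and the build GRCm38.p6 were used. The deposited table holds raw fragment counts per gene. Per the file headers, counting ignored strand, and a fragment over several genes counted for each. The authors' deposited comparison holds log2 fold changes and p-values. Symbols and exons came from GENCODE M21 (GRCm38), and 51633 of 51911 gene IDs had a symbol.

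Counts were filtered (filterByExpr), scaled with TMM and tested with edgeR 4.0.16 (quasi-likelihood, robust) in R 4.3.3, with genotype as the sole term. SE is the absolute log2 fold change over the square root of F. Library totals were 25532146 to 40846872 counts. Paralogue ratios added 0.5 to each count. Alternatives were other scalings, filters and tools (DESeq2 1.42.0, limma 3.58.1), a replicate block and leaving out libraries. The method was tested on simulated data with few changed genes, in both directions, and no general shift between genotypes. That simulation does not bear on the choice of scaling. The 28 genes and all lists were chosen with earlier results of these data known. Named genes were all 28, Ppargc1a and, from each of 5 other pathway lists, up to 4 called genes by smallest p whose mean CPM reached 1 in either genotype. Cell markers and some overlapping genes were named beside the results they touch. Other exonic overlaps were not named there. Among these, Cyp51 (1451 counts over all libraries) shares 166 exonic bases with Akap9 (18085 counts) on the other strand. Scap shares 985 with 5830462I19Rik, Lss 381 with 4930483K19Rik and Sec23a 431 with Gm17529, all on the other strand. A gene that the rule names is not reported here.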

Additional observations from a re-analysis of the deposited data

How the results depend on the processing

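Of the 15 calls among the 28 genes, 11 (Hmgcs1, Mvk, Pmvk, Mvd, Fdft1, Tm7sf2, Hsd17b7, Ebp, Sc5d, Srebf1 and Insig1) kept their direction and threshold under all 15 alternatives. Library totals alone gave 17 genes higher and 4 lower, a median of 0.53 over the 28, 50 higher and 9 lower in the 5 pathway lists, and 8676 higher and 1448 lower among all genes; fold changes turned to 0.37 for Cyp51, 0.17 for Msmo1, 0.32 for Nsdhl, 0.15 for Insig2, 0.27 for Elovl6 and 0.019 for Scd2. With no filter on low counts Cyp51 was 0.012; the cause was not tested. Leaving out 1 library gave 14 to 16 calls (8 to 9 higher, 5 to 7 lower), and ranges that crossed 0 for Cyp51 (-0.15 to 0.052), Nsdhl (-0.22 to 0.0055), Fasn (-0.11 to 0.51), Elovl6 (-0.57 to 0.16), Scd1 (-1.85 to 0.52) and the log2 ratio differences of Scd1 to Scd2 (-0.79 to 0.59) and Elovl6 to Elovl5 (-0.068 to 0.59). Removing both libraries numbered 1, chosen after seeing the data, gave 13 calls and ratio differences of 0.12 and -0.0205 for those pairs.

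Over all tested genes, same-numbered libraries did not deviate together (correlations 0.101, -0.0884 and -0.21), so the numbers were not taken as pairs. Replicate 1 was still the highest in each genotype for Scd1, Scd2 and Fasn. With the replicate block 16 of the 28 genes were called, adding Dhcr7 (0.30, adjusted p = 0.0267), and 8331 of all genes, against 8419 without it. The adjusted p of Scd2 was 0.000703 with the block and 0.0283 without it. In the fit without the block, SEs were largest for Scd1 (1.13), Elovl6 (0.43), Fasn (0.41) and Idi1 (0.31). Changes near or below these SEs were not detectable in that fit, and somewhat larger ones could also go uncalled. Idi1 at 0.38, above its SE, was not called (adjusted p = 0.327). With the block the SEs were 0.31 for Scd1, 0.29 for Elovl6, 0.13 for Fasn and 0.37 for Idi1. None of these genes was called with it, at adjusted p from 0.21 to 0.793.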
